A study of Homo sapiens with 2 samples.

Results

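Dense stretches of TARBP2-bound RNA were described in MDA-LM2, a lung-metastatic derivative of the human breast cancer line MDA-MB-231. TARBP2 is a protein that binds double-stranded RNA and works with the nuclease Dicer. A dense set was defined on chromosomes 1 to 22 as 10 or more regions on 1 strand whose neighbours were separated by at most 10000 nt. Members were the regions of 1000 nt or less within such a set. This rule gave 130 sets with 1960 regions, of which 1741 were members and 219 were longer. Members made up 7.44% of the 23412 regions of the study.

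The cells carried a myc-tagged TARBP2 vector introduced by transient transfection, and were UV cross-linked 48 hours later. RNA cross-linked to the tagged protein was taken through HITS-CLIP with an anti-myc antibody and sequenced. The 2 replicates formed 1 group and were represented by 1 common list of regions on hg19. Each region had a score of 1, so no height, depth or replicate error can be given, and no control library was compared. The cell line could not be checked against marker genes, since the list holds no levels. The protein was introduced by a vector, and the list therefore describes RNA recovered with the tagged protein.

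TARBP2 binds double-stranded RNA through repeated double-stranded RNA-binding domains, with little preference for sequence. It helps Dicer cut microRNA precursors and helps load the product onto Argonaute proteins. It also binds other structured RNA, including messenger RNA precursors. In long human transcripts, paired structure can arise where repeats of opposite direction lie close together, often in introns. No sequence of these regions is printed, because a genome of hg19 was not used here.

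The rule selected sets by spacing and number, so the following values describe the sets and carry no test. Most sets were small. They held 10 to 45 regions with a median of 13, and 82 held 10 to 14, 26 held 15 to 19 and 22 held 20 or more. The span of a set, from the start of its first region to the end of its last, ranged from 10.7 to 104 kb with a median of 31.8 kb. All spans together came to 4.59 Mb. Density ranged from 0.235 to 0.932 regions per kb with a median of 0.432. Regions covered 8.54 to 67.3% of a set, with a median of 24%. The 10 largest sets held 24 to 45 regions over 38.7 to 104 kb and contained 15.2% of the members. Equal numbers were ranked by density. The other 120 sets held 1476 members and had a median span of 30.7 kb.

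**Figure D1:**
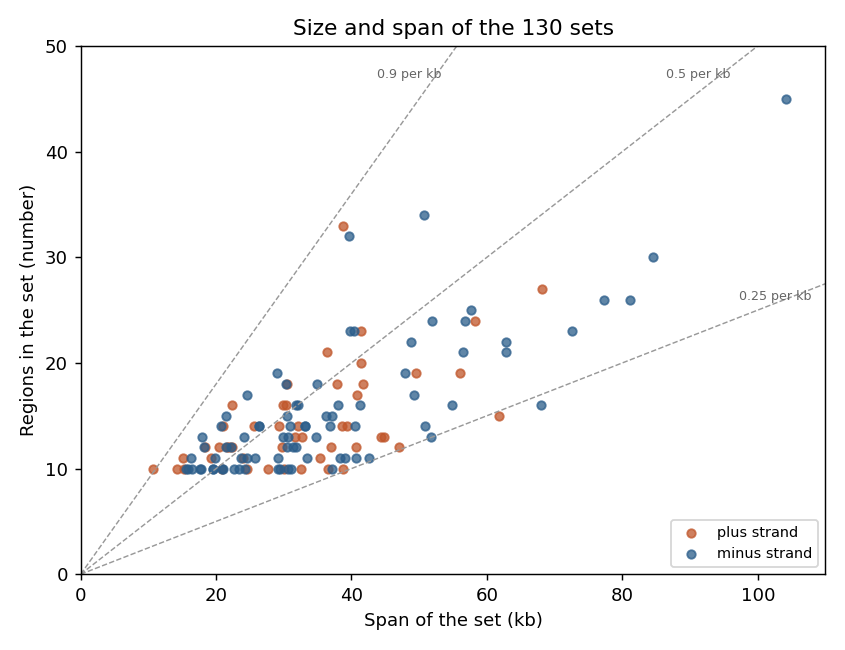
Number of regions against span in kb for each of the 130 sets, with 1 point per set coloured by strand and dashed lines of constant density. Most points lie between 0.25 and 0.9 regions per kb, and the set with 45 regions is also the longest at 104 kb.

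Sets near the limits of the rule differed little in density. The 27 sets of exactly 10 regions had a median span of 22.6 kb and a median density of 0.442 regions per kb. The 31 joined groups of 9 regions, just outside the rule, had 22 kb and 0.409 regions per kb. The 54 groups of 8 regions had 20.7 kb and 0.387 regions per kb. The largest gap within a set was 9935 nt, and the smallest gap not joined was 10001 nt. The longest member was 996 nt, and the shortest region of a set left out for its length was 1003 nt.

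Gaps between neighbours within sets were short compared with the joining distance. Over the 1830 gaps the lowest was 101 nt, the median 987 nt and the highest 9935 nt, and the quartiles were 360 and 2576 nt. Of these gaps 33.3% were at most 500 nt, 50.5% at most 1000 nt and 90.3% at most 5000 nt. A gap above 9000 nt was present in 21 sets, which would have been divided by a slightly smaller joining distance. In contrast, 50 sets had no gap above 5000 nt.

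Each gene name below is background from general knowledge of where genes lie on hg19, and not a result of these files. A name was given to 87 of the 130 sets, which gave 83 genes, and 43 sets were left without one. GENCODE 29, an annotation of another build, was used only to check names. It had each of the 87 named sets' genes on the same chromosome and strand as the set, and the order of genes along a chromosome matched the order of sets in 208 of 208 gene pairs. Names were written from knowledge of gene positions, so this agreement was nearly fixed in advance. Coordinates of sets were not compared with those of genes. Whether a set overlaps its named gene, and where in the gene it lies, was therefore not checked. A set said below to lie in a gene, or to belong to it, is a set given that gene's name. Exons, introns and distance from a gene's start were likewise not assigned.

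Several sets lay in genes of proteins that bind or process RNA, including a direct partner of TARBP2. AGO2 encodes the Argonaute protein that holds microRNAs and cleaves their targets. Its set (chromosome 8, minus, 141605439 to 141631213) had 11 regions over 25.8 kb. From the 5′ to the 3′ end its regions were 295, 252, 1074, 451, 552, 1117, 346, 607, 415, 263 and 251 nt long. The gap between the 4th and 5th was 132 nt, and the largest gap, before the 4th, was 4559 nt. Of the AGO2 regions 2 were above 1000 nt and so were not members. The density of the AGO2 set (0.427 regions per kb) and its coverage (21.8%) were close to the medians of all sets, 0.432 per kb and 24%. No set was named for the gene of Dicer. The AGO2 set is therefore not read as a trait of partners of TARBP2.

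SRPK1 and SRPK2 encode the kinases that phosphorylate splicing factors of the SR family, and each had a set. The SRPK1 set (chromosome 6, minus, 35804065 to 35823580) had 10 regions over 19.5 kb. The SRPK2 set (chromosome 7, minus, 105005316 to 105026186) had 10 regions over 20.9 kb. Median gaps were 969 nt in SRPK1 and 987 nt in SRPK2, and median region lengths were 405.5 and 407 nt. The sets of these paralogs were thus alike in size, span and spacing, but the values were also typical of the sets. The 27 sets of exactly 10 regions, the least the rule allows, had a median span of 22.6 kb. Over the 130 sets the median of the median gaps was 1009 nt, and that of the median member lengths was 404.75 nt. The likeness is therefore not read as a trait of paralogs. Region lengths from the 5′ end began with 241, 759, 737 and 263 nt and ended with 827 and 476 nt in SRPK1, with a region of the most common length of the list at the 5th and 8th position. They were 682, 326, 279, 401, 454, 438, 261, 760, 222 and 413 nt in SRPK2.

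The group of RNA-binding, processing and translation genes comprised 14 genes with 14 sets of 10 to 23 regions (median 11.5). Groups of this kind were formed after the sets had been seen. EIF4G3, a scaffold of translation initiation, had 23 regions over 72.6 kb (chromosome 1, minus, 21427578 to 21500186). R3HDM2, a protein with an R3H domain that is in the RNA-binding list below, was not placed in this group and had a larger set, with 30 regions over 84.5 kb. CELF1, a regulator of splicing and mRNA decay, had 22 regions over 48.8 kb (chromosome 11, minus, 47530148 to 47578943). RBM6, an RNA-binding splicing regulator, had 20 regions over 41.5 kb (chromosome 3, plus, 50038816 to 50080269). RBMS2 (chromosome 12, plus, 56919818 to 56950236) and ATXN2 (chromosome 12, minus, 111996156 to 112031047) each had 18 regions. Regions covered 35% of the ATXN2 set, whose longest region was 2385 nt, and 23% of the RBMS2 set, whose longest was 766 nt.

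The smaller sets of this group had 10 to 14 regions. HNRNPC, a packaging protein of nascent transcripts, had 14 regions at low density (0.275 per kb, chromosome 14, minus, 21688277 to 21739111). ZC3HAV1, an antiviral protein that binds foreign RNA, had 10 regions with a longest of 2435 nt (chromosome 7, minus, 138732847 to 138762263). LUC7L, a U1 snRNP-associated splicing factor, had 11 regions (chromosome 16, minus, 237590 to 275903). The remaining genes with sets were LARP4, NUFIP2 and YARS, with 10, 10 and 12 regions.

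Genes of chromatin, transcription and cohesin formed a group of 13 genes and 13 sets, with 10 to 21 regions (median 12). GATAD2B, a subunit of the NuRD complex, had the most, with 21 regions over 56.5 kb (chromosome 1, minus, 153833563 to 153890022). PDS5A, a regulator of cohesin, had 17 regions over 24.5 kb, or 0.693 per kb (chromosome 4, minus, 39951868 to 39976387). RCOR1, a corepressor, had 16 regions (chromosome 14, plus, 103061566 to 103091476). NSD2, a histone H3 methyltransferase, had 14 regions, of which 7 were longer than 1000 nt (chromosome 4, plus, 1874040 to 1913432). Its longest was 3908 nt.

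Histone methyltransferases were represented also by SETD2 and KMT2C. SETD2 had 10 regions over 16.5 kb (chromosome 3, minus, 47175842 to 47192292), and KMT2C 11 regions over 40.6 kb (chromosome 7, minus, 152088156 to 152128768). At 0.608 and 0.271 regions per kb their densities differed, although the numbers of regions were close. HMGA2, an architectural DNA-binding protein, also had a sparse set, with 10 regions at 0.274 per kb (chromosome 12, plus, 66277718 to 66314261). TBL1XR1, AFF4, ASXL1, PHF20 and STAG1 held 10 to 13 regions each.

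The densest set of all lay in GABPB2, a subunit of an ETS transcription factor (chromosome 1, plus, 151047346 to 151058078). It had 10 regions in 10.7 kb, or 0.932 per kb. From the 5′ end they were 606, 276, 545, 342, 984, 250, 311, 594, 326 and 250 nt long. Its median gap was 383 nt, and the largest was 1953 nt. Next by density came 2 of the 10 largest sets, on opposite strands of 1 stretch of chromosome 1, with 0.853 and 0.806 regions per kb. EEF1AKMT2, a lysine methyltransferase of an elongation factor, followed with 13 regions at 0.728 per kb (chromosome 10, minus, 126458401 to 126476266). TPD52L2 had 11 regions at 0.727 per kb (chromosome 20, plus, 62497878 to 62512999).

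The sparsest set lay in UBAP2, a gene of a ubiquitin-associated protein (chromosome 9, minus, 33977521 to 34045540). It had 16 regions over 68.0 kb, or 0.235 per kb, with a median gap of 4290 nt and a largest gap of 9022 nt. All 16 regions were between 191 and 776 nt long. The other sparse sets had 0.243 to 0.258 regions per kb. They were an unnamed set on chromosome 17 (plus, 29060919 to 29122651), the set in NXN, a thioredoxin-like protein (chromosome 17, minus, 818065 to 869860), an unnamed set on chromosome 6 (plus, 10775778 to 10822841) and the set in HM13, a signal peptide peptidase (chromosome 20, plus, 30106404 to 30145189). None of these sparse sets held a region above 1000 nt. Regions covered 9.24% of the UBAP2 set and 41.8% of the GABPB2 set.

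Ubiquitin and SUMO genes formed a group of 7 genes and 7 sets, with a median of 21 regions. UBE2D2 and UBE2K encode ubiquitin-conjugating enzymes. UBE2D2 had 24 regions over 58.3 kb (chromosome 5, plus, 138946180 to 139004482), and UBE2K 21 regions over 36.4 kb (chromosome 4, plus, 39704860 to 39741259). SMURF2, a ubiquitin ligase acting on TGF-beta receptors, had 23 regions over 39.8 kb that covered 49.0% of the set (chromosome 17, minus, 62611804 to 62651650). Of the SMURF2 regions 5 were above 1000 nt, the longest being 2975 nt. USP4, a deubiquitinase, had 10 regions (chromosome 3, minus, 49342043 to 49361541), and SAE1, of the SUMO-activating enzyme, had 12 (chromosome 19, plus, 47659596 to 47696515).

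Cytoskeleton and junction genes and their signalling partners formed a group of 13 genes and 15 sets of 10 to 45 regions, in which MAGI1 and FRMD5 had 2 sets each. The set of 45 regions was named for GNB1, which is in the list of GTPase signalling below. RHOA, the GTPase that controls actin stress fibres, had 17 regions over 49.2 kb (chromosome 3, minus, 49396429 to 49445593). CRK, an adaptor of focal adhesion signalling, had 19 regions at 0.655 per kb (chromosome 17, minus, 1327463 to 1356460). PLEC, which links intermediate filaments to junctions, was named for a set of 19 regions, none above 1000 nt (chromosome 8, minus, 144967928 to 145015798). DNM2, a GTPase of membrane fission, had 11 (chromosome 19, plus, 10835172 to 10859200). WASF2, CLIP1 and ABL2 had 10 regions each, and LMNB1, a nuclear lamin, had 12.

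AXL, a receptor tyrosine kinase of mesenchymal breast cancer cells, had 14 regions over 29.3 kb (chromosome 19, plus, 41728913 to 41758210). No set was named for the other mesenchymal markers of the plan, which were VIM, CD44, EGFR, SPARC, CAV1, FN1, ZEB1, TGFBI and MET. None was named for a luminal marker of the plan, so the AXL set is not read as a trait of the cell type. Its first 7 regions from the 5′ end were 224 to 519 nt long, and the last 7 were 399, 1100, 262, 700, 982, 651 and 269 nt long. Gaps after the first 6 regions were 987 to 4899 nt, and those between the 8th and the 12th were 128 to 338 nt. The closest spacing and the longest regions of the AXL set thus lay in its 3′ part. MYOF, a membrane repair protein, had 10 regions (chromosome 10, minus, 95174178 to 95189784).

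Other named sets lay in genes of nuclear transport and metabolism. XPO1, the main nuclear export receptor, had 14 regions, of which 6 were above 1000 nt (chromosome 2, minus, 61729378 to 61760265). NUP62, a nuclear pore protein, had 10 (chromosome 19, minus, 50414656 to 50430457), and RCC1, the exchange factor of the RAN GTPase, had 14 (chromosome 1, plus, 28830587 to 28869182). GCNT2, a glycosyltransferase, had 16 regions at 0.715 per kb (chromosome 6, plus, 10530451 to 10552831). PIP5K1A, a lipid kinase, had 18 regions (chromosome 1, plus, 151171942 to 151209767). PKM, a pyruvate kinase, had 10 regions with a median member length of 253 nt, the lowest of the 130 sets (chromosome 15, minus, 72491293 to 72528443). CGAS, a sensor of cytosolic DNA, had 11 regions (chromosome 6, minus, 74134389 to 74158123). HSPA1A, a heat shock protein with a near-identical neighbouring copy, was named for a set of 10 regions on chromosome 6 (plus, 31783417 to 31807961). Reads may be shared between the copies. This set spanned 24.5 kb, and only 14.3% of its members lay nearer its 5′ end. How much of it the named gene covers was not checked, and the name may fit only a part.

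**Figure D2:**
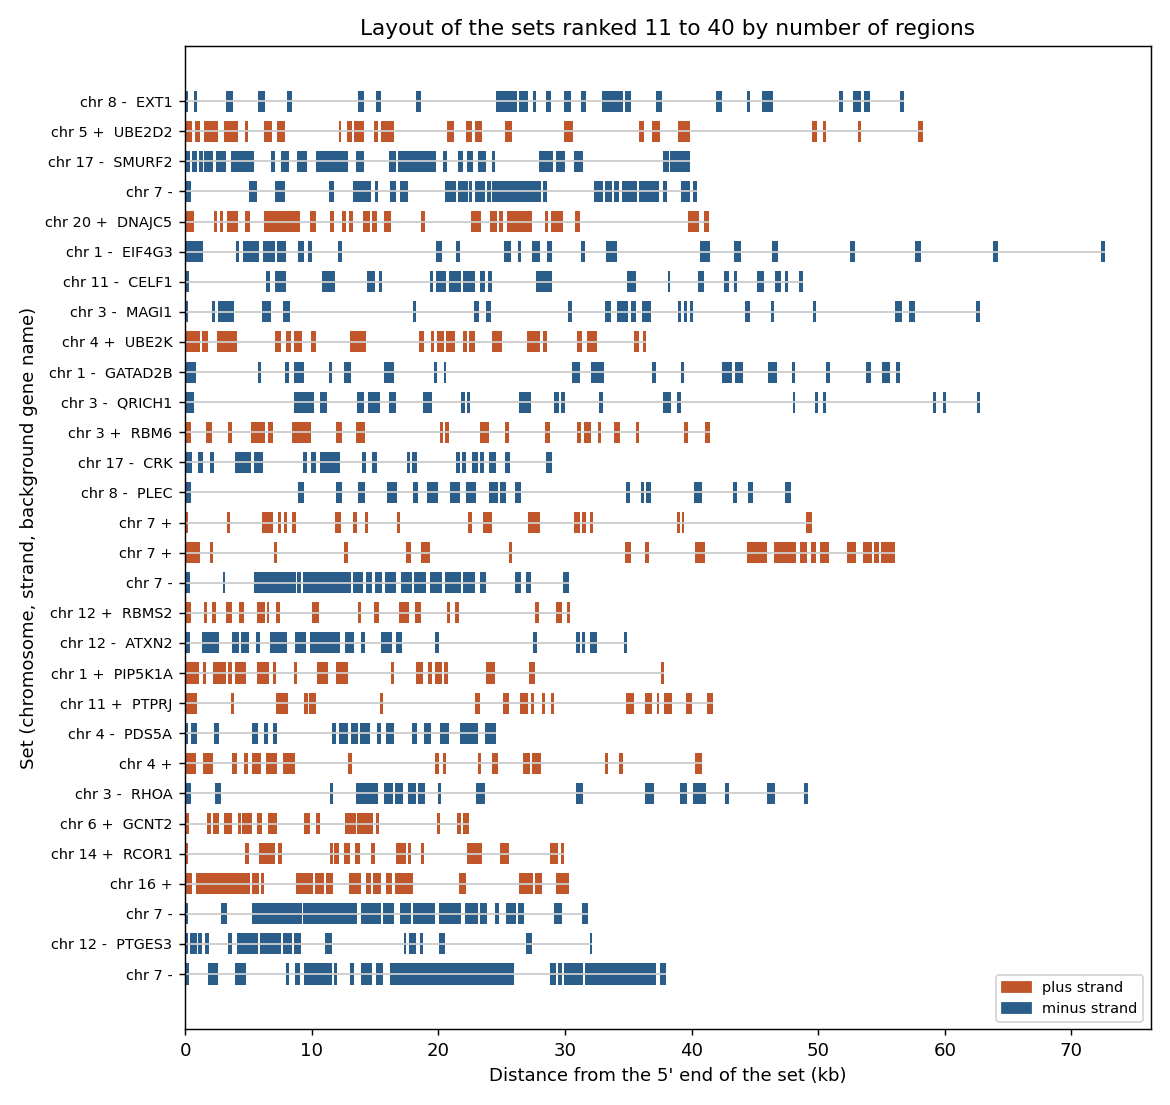
Layout of the 30 sets ranked 11 to 40 by number of regions, drawn from the 5′ end of each set in kb, with bars for regions and colour for strand. Sets held 16 to 24 regions over 22.4 to 72.6 kb, and gaps are interspersed with runs of closely spaced regions.

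Among the 30 sets ranked 11 to 40, which held 16 to 24 regions, 22 had a gene name and 17 were on the minus strand. Those without a name included 6 on chromosome 7. The unnamed set with the most regions had 23 over 40.4 kb (chromosome 7, minus, 44017290 to 44057715). Its regions covered 44.1% of the set, and its longest was 3873 nt. Another had 18 regions that covered 57.1% (chromosome 7, minus, 74274663 to 74304966), and a set of 16 regions covered 62.3% (chromosome 7, minus, 72442767 to 72474567). Of the 23 sets covered above 40%, 13 were on chromosomes 7 and 16, which held 31 of all 130 sets (23.8%). Both chromosomes hold duplicated segments, where reads may be shared between copies, and how multi-mapping reads were handled is not stated. A bearing of this on coverage was not tested. An unnamed set of 17 regions on chromosome 4 (plus, 2540789 to 2581593) had no region above 1000 nt.

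Genes of 10 lists were looked up by symbol among the named sets. The lists held 230 genes and were written with earlier results of these data known, and 17 of these genes (7.39%) were named at a set. Of the 19936 protein-coding symbols of GENCODE 29, 82 (0.411%) were named at a set. Lists and names were both written from general knowledge, so nothing is read from the difference between these shares. The cytoskeleton list had 3 of 24 (MAP4, DNMBP and PLEC). The ubiquitin list had 3 of 25 (UBE2D2, UBASH3B and SMURF2), and the RNA-binding list also 3 of 25 (HNRNPC, CELF1 and R3HDM2). The lists of GTPase signalling (GNB1 and RHOA) and of chromatin (KMT2C and SETD2) had 2 of 25 each, and that of apoptosis and cell cycle had 2 of 20 (BCL2L1 and CCND3). Vesicle traffic and metabolism had 1 of 20 (EXT1), and duplicated segments had 1 of 25 (POM121C). The list of kinases and phosphatases had 0 of 25, and that of nuclear noncoding RNAs had 0 of 16. However, kinases outside the former list (SRPK1, SRPK2, ABL2, AXL and MARK3) and a phosphatase outside it (PTPRJ) were named at a set. With 43 sets unnamed and the names not checked against an hg19 annotation, these counts could be too low or too high. Of the 83 named genes, 66 were in no list.

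Some genes held 2 sets separated by slightly more than the joining distance. The sets of EXT1, a polymerase of heparan sulfate, had 24 and 11 regions on chromosome 8 and were 11745 nt apart, and together they spanned 84.8 kb (118971999 to 119056763). MAGI1, a scaffold of cell junctions, had sets of 22 and 13 regions 14343 nt apart, within 107 kb of chromosome 3 (65888648 to 65995705). PTPRJ, a receptor tyrosine phosphatase, had sets of 18 and 10 regions 10122 nt apart (chromosome 11, 48008028 to 48092304). FRMD5, a FERM-domain protein of cell junctions, had sets of 16 and 13 regions 14049 nt apart (chromosome 15, 44404478 to 44483901). Another pair of neighbouring sets, 14844 nt apart on chromosome 20, had different names, TPD52L2 and DNAJC5. DNAJC5, a chaperone of synaptic vesicles, had 23 regions over 41.3 kb. These 5 pairs were the only neighbouring sets on the same strand within 20 kb of each other.

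Many sets had another set nearby. Another set lay within 1 Mb of 71 of the 130 sets (54.6%), on either strand, and these made up 24 clusters. Among the clusters were the 2 neighbouring sets of MAGI1, of EXT1 and of FRMD5, separated only by the joining distance. The overlapping pair on opposite strands of chromosome 1 was also counted as a cluster. No such share was computed for smaller groups or other regions, so gathering of the sets was not tested. The largest named cluster was on chromosome 3 from 47175842 to 50080269, with 7 sets and 117 regions, in SETD2, MAP4, QRICH1, USP4, RHOA, IP6K1 and RBM6. Of these 7 sets 6 were on the minus strand. QRICH1 had 21 regions over 62.8 kb, and IP6K1, an inositol phosphate kinase, had 14 over 33.1 kb. On chromosome 11, sets in CELF1, FNBP4 and PTPRJ made a cluster of 4 sets and 61 regions from 47530148 to 48092304. On chromosome 12, sets in CS, RBMS2, PTGES3 and R3HDM2 made a cluster of 4 sets and 78 regions from 56671109 to 57823712. Chromosome 17 had 3 minus-strand sets with 46 regions from 818065 to 1356460, in NXN, YWHAE and CRK. Chromosome 20 had 3 plus-strand sets with 48 regions from 62340841 to 62569179, in ZGPAT, TPD52L2 and DNAJC5. Chromosome 7 had a cluster of 7 sets from 74274663 to 76694672.

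The number of sets differed widely between chromosomes. Chromosome 7 had 22 sets, which held 20.3% of its regions, and chromosome 20 had 7, which held 17.1%. Chromosome 1 had 14 sets and chromosome 3 had 12. Chromosome 2 had 1574 regions in the list but only 2 sets, which held 1.52% of them. These lay in XPO1 and MIR4435-2HG, a long noncoding RNA. Chromosomes 13, 18, 21 and 22 had 0 sets among 1473 regions.

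**Figure D3:**
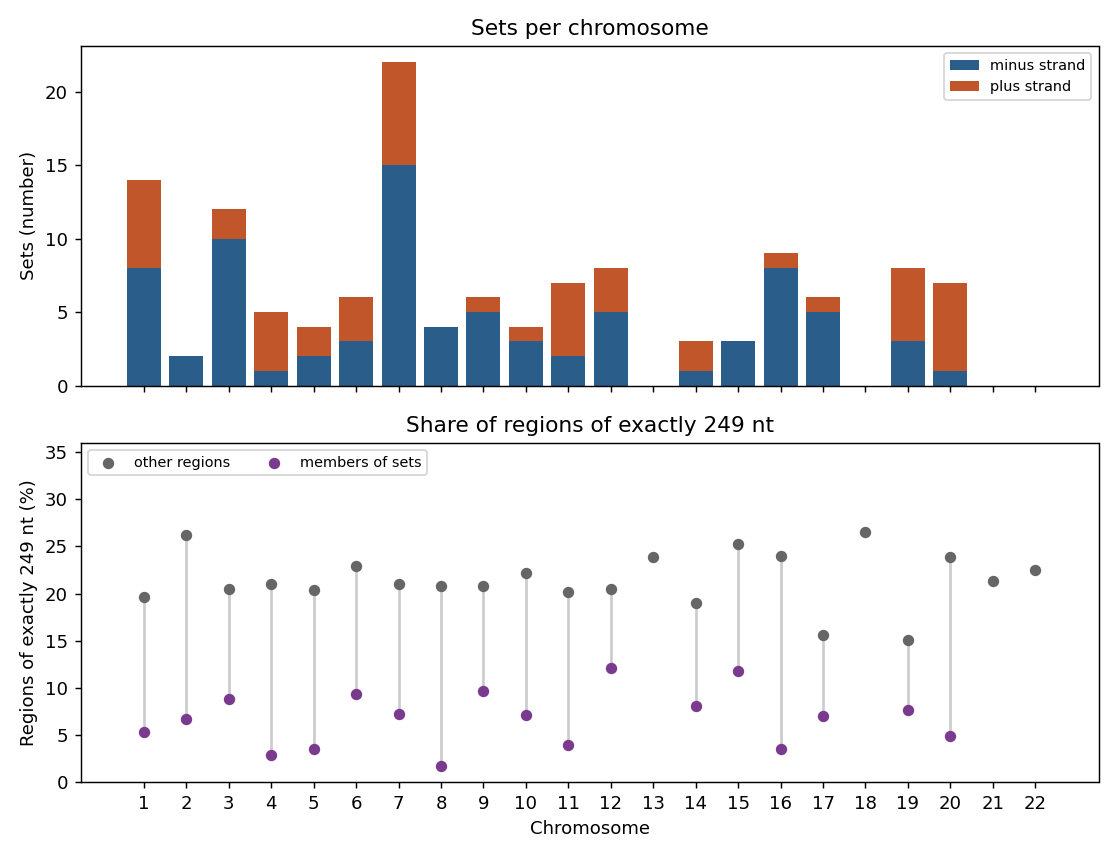
Number of sets per chromosome by strand (upper panel) and share of regions of the most common exact length in percent among members and among other regions of 1000 nt or less (lower panel). Chromosome 7 has the most sets at 22, and the point for members lies below that for other regions on each of the 18 chromosomes with sets.

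By strand there were 81 minus and 49 plus sets, and the minus share was 62.3% (95% exact Clopper-Pearson interval 53.4 to 70.7%). Of the chromosomes with unequal numbers, 11 had more minus-strand and 5 more plus-strand sets (two-sided exact sign test, p = 0.210, Benjamini-Hochberg adjusted over 4 tests p = 0.317). The test did not pass, and the share was close to the 60.0% minus of the 2695 joined groups of 2 to 9 regions. Sets on the minus strand had a median of 14 regions over 31.7 kb and those on the plus strand 13 regions over 32.1 kb. The median of their median gaps was 987 and 1012 nt.

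Few regions of the other strand lay within the spans of the sets. In the spans of the sets, 95.5% of regions were on the set's own strand, and 107 of 130 spans held no region of the other strand. In 21 spans there were 1 to 3 such regions. Only the pair of sets on opposite strands of chromosome 1, among the 10 largest, had 4 or more. The other strand held 92 regions in all spans, against 1960 on the sets' own strand, which the rule fixed to be high.

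Members were longer than other regions of 1000 nt or less, with a median of 417 nt (quartiles 281 and 591 nt) against 250 nt (246 and 332 nt). Length enters the joining rule, since a longer region leaves a shorter gap, so no test is given. A region above 1000 nt was present in 84 sets and absent from 46, and 12 sets held 5 or more.

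The most common exact length in the list, marked on the plot of chromosomes, was less frequent among members. It was found in 117 of 1741 members (6.72%, exact interval 5.59 to 8.0%) and in 4302 of 20259 other regions (21.2%, 20.7 to 21.8%). The mean difference over 18 chromosomes was -14.3 ± 4.07 percentage points (SD), and it ranged from -20.5 to -7.42. The share was lower in members on each of the 18. It is a share of lengths, which the rule used, and is likewise given with no test. Other lengths from 240 to 260 nt were also less frequent, at 7.41% of members and 17.9% of other regions. The share of the most common length was 26.4% in regions with no neighbour within the joining distance and 13.3% in groups of 2 to 9 regions. Median length was the most common length itself in regions with no neighbour, 300 nt in groups of 2 to 9 and 417 nt in members. By strand the share among members was 7.83% on the minus and 4.82% on the plus strand, and among other regions 29.5% and 8.66%.

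**Figure D4:**
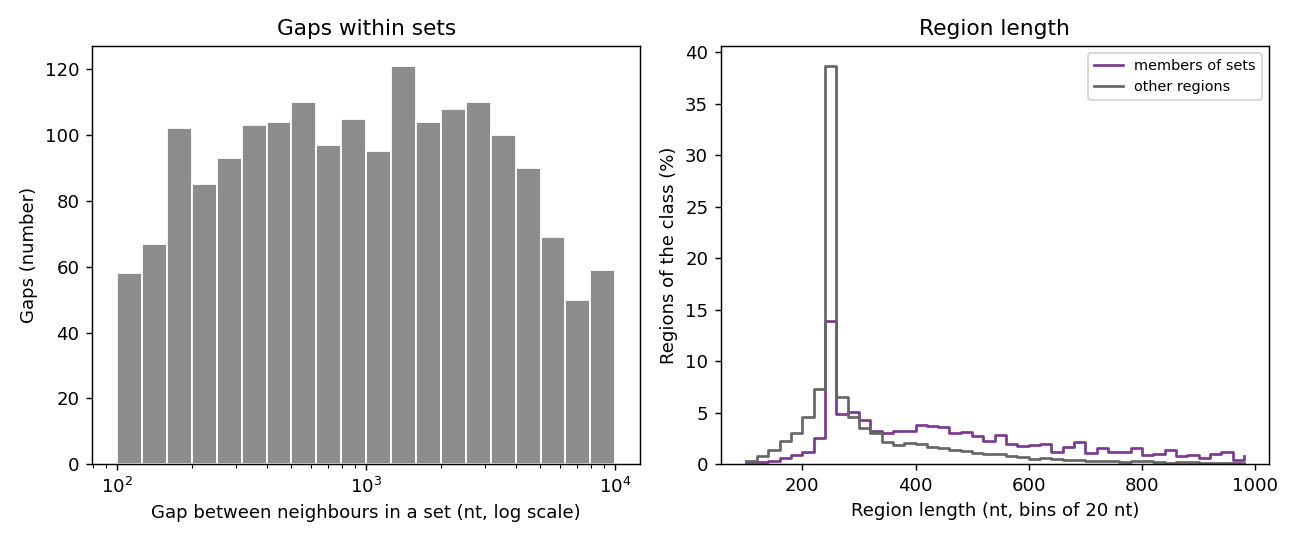
Number of gaps between neighbouring regions of a set by gap length in nt on a log scale (left), and percent of regions by length in bins of 20 nt for members and for other regions of 1000 nt or less (right). Gaps have a median of 987 nt, and other regions form a sharp peak at the most common length that is lower among members, whose median is 417 nt.

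No lean of members toward either end of the sets passed the test. Position was taken from the 5′ to the 3′ end of the set's strand, a direction the rule did not use. The mean share of members nearer the 5′ end was 50.9%, and over the 18 chromosomes it averaged 51.2% ± 4.22 (SD). The share was above 50% on 12 and below on 6 (two-sided exact sign test, p = 0.238, adjusted p = 0.317). More members lay nearer the 5′ end in 62 sets, nearer the 3′ end in 52 and equally in 16. When sets were divided into 10 bins of equal width, the outer bins held 230 members at the 5′ end and 227 at the 3′ end, and the 8 inner bins 142 to 172. The outer bins are raised by construction, since each set begins and ends with a region. Without the first and the last region of each set they held 113 and 103 members. The bins still covered the full span, including the place of the removed regions, so these counts are lowered by construction.

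A difference in length along the sets was likewise not detected. The median over sets was 415.75 nt for members nearer the 5′ end and 407.5 nt for those nearer the 3′ end, and the median difference was 15.5 nt. The 5′ members were longer in 71 sets and the 3′ members in 59, and chromosomes were divided 9 to 9 (two-sided exact sign test, p = 1, adjusted p = 1). Single sets differed among themselves, and the share of members nearer the 5′ end ranged from 14.3 to 90.0% over the 130 sets.

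**Figure D5:**
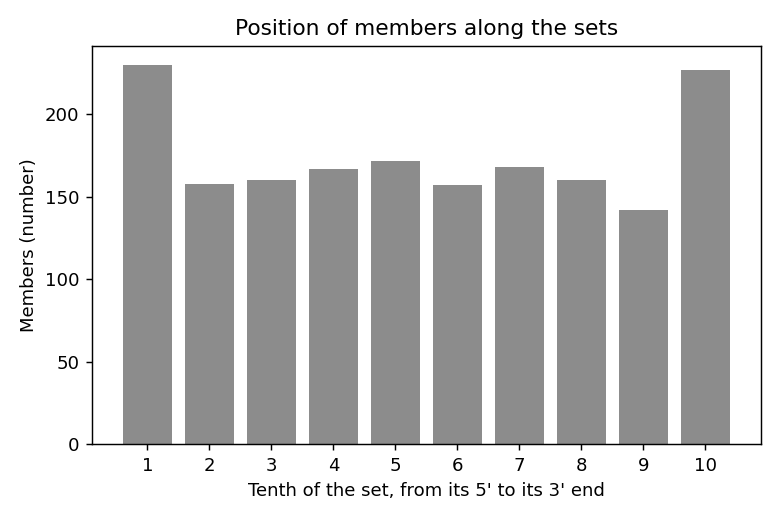
Number of members in each of 10 equal bins of a set, from its 5′ to its 3′ end, summed over the 130 sets. The inner bins hold 142 to 172 members each, and the outer bins, which contain the first and last regions by construction, hold 230 and 227.

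Same-strand regions beyond the sets were counted at 10 to 100 kb from each end. There were 517 such regions on the 5′ side and 602 on the 3′ side, so 53.8% lay downstream. Of these, 162 on the 5′ side and 166 on the 3′ side were regions of other dense sets, which entered the flanks of 22 sets. Without them there were 355 and 436, or 55.1% downstream, and the exact sign test gave the same unadjusted p of 0.238. The 3′ side held more on 12 chromosomes and the 5′ side on 6 (two-sided exact sign test, p = 0.238, adjusted p = 0.317). By set, 65 had more downstream, 52 more upstream and 13 equal numbers, and 8 had no region on either side. The unadjusted exact sign test passed at a joining distance of 5 kb (57.3% downstream, p = 0.0309) and among sets of at least 15 regions (64.7%, p = 0.0213). The density in these flanks was 47.8 regions per Mb, or 33.8 without the regions of other dense sets, compared with 427 per Mb within the sets. Sets were selected for close spacing and end at a gap above 10 kb, so the rule fixed this contrast.

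Names of the regions hold numbers that rise along each strand, and not all numbers are listed. From the first to the last region of the sets there were 3395 numbers, of which 57.7% were listed, compared with 15.3% over chromosomes 1 to 22. Joined groups of 5 to 9 regions had 57.2% of their numbers listed. The listed share per set ranged from 33.3 to 90.9% with a median of 60.0%. The listed share in the sets was thus close to that in smaller groups. Sets and smaller groups were both formed by joining closely spaced listed regions, so their shares are raised by construction. The difference from 15.3% was not tested.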

How the data were processed

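RNA bound by myc-tagged TARBP2 was measured in 2 replicates of MDA-LM2 cells, for which the authors deposited 1 list of stranded regions with a score of 1 in each row. Other values in that list are region starts (0-based) and ends, printed here 1-based. Bowtie and the genome build hg19 are named, per the submitters' processing notes. What called and filtered the regions, how multi-mapping reads were handled and whether replicates were pooled is not stated in these notes. These steps decide which regions are listed and how long they are. Whether replicates were separate cultures is not stated.

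Regions of chromosomes 1 to 22 were joined per strand where the gap was at most 10 kb. The members, gene lists and rules were chosen with earlier results of these data known. The planned tests of sense strand, introns, position in genes and GC content need an annotation or genome of hg19 and were not run. The planned rule named genes only with such an annotation. Names were instead given as background, and checked against GENCODE 29 for chromosome, strand and order only. Some names are not reported here. The named sets were those ranked 11 to 40, the 5 densest, 5 sparsest and 5 longest, and genes with 2 sets. Other sets were named after being seen. The most common region length was exactly 249 nt, and the report gives its share without repeating the number. The planned test of this share was left out, since length enters the joining rule. The minus share was a planned test, and the tests of direction and flanks were added.

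Chromosomes were the units of the exact sign tests, which do not measure variation between cultures, and p-values were adjusted over 4 tests by the Benjamini-Hochberg method. Intervals are 95% Clopper-Pearson and cover counting error only. Statistics were tested on simulated data. The software was matplotlib 3.10.9, pandas 2.3.3, scipy 1.17.1 and numpy 2.4.6 under Python 3.11.15.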

Additional observations from a re-analysis of the deposited data

How the results depend on the processing

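Of 41 alternative settings over the 6 results, 31 left the call as it was, changed a count by at most 1.5 times, or kept an untested share within its exact interval. In place of 130 sets there were 83 with joining at 5 kb, 207 at 20 kb and 48 when at least 15 regions were required, by construction of the rule. Without chromosomes 7 and 16 it was 99. The minus share of sets was 58.6 to 66.7%, and its unadjusted test passed only at a joining distance of 20 kb (61.4%, exact sign test, p = 0.0309). This test compares the strands with equal numbers, and 60.3% of the regions outside the 130 sets were on the minus strand. Passing it is therefore not read as a trait of dense sets. The downstream share of flanking regions was 52.6 to 65.7%, and its unadjusted exact sign test passed at 5 kb (57.3%, p = 0.0309) and with at least 15 regions (64.7%, p = 0.0213). Without regions of other dense sets these were 59.6 and 65.7%, with the same p-values. The cause was not tested. The share of the most common length among members has no test and was 5.59% with joining at 5 kb, marginally under the exact interval of the reported share, and 8.49% at 20 kb, above it. The share of members nearer the 5′ end was 49.4 to 51.5%. The length difference along the sets was -8 to 24 nt. The alternatives without chromosomes 7 and 16, for the flank width and contents, and for direction and flanks were added after seeing the data. Alternatives that need genes or GC content were not run. No paired analysis was possible because both replicates share 1 list, and no replicate could be left out. Depth is unknown and could not be used to weigh regions.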
